A study of Mus musculus with 249 samples.

Results

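Genome architecture mapping (GAM) measures nuclear organization by cutting fixed nuclei into thin slices and sequencing the DNA of each slice. A slice captures stretches of the chromatin fibre, so neighbouring genomic windows tend to be found together in the same tube, and windows that lie close in the nucleus tend to be found together more often than distant ones. The libraries described here are those in which the detected windows lay scattered along the chromosomes and not in long runs. They are 25 of the 249 multiplex-GAM libraries of the collection, and they were chosen by 1 measured value. A library was taken as scattered if under 65% of its positive 40 kb windows had a positive window directly next to them on the same chromosome, a share called the neighbour share here.

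All 249 libraries were made from the 46C line of mouse embryonic stem cells, of strain 129/Ola with a Sox1-GFP knock-in, grown with LIF in serum and replated in serum-free medium for the last day. Slices of nuclei (nuclear profiles) were cut from cryosections of 220 nm and collected by laser microdissection, with 4 profiles per tube by the titles, and their DNA was amplified with a whole genome amplification kit. The tubes belonged to 11 experiments with 20 protocol groups, and libraries that failed the authors' quality control are not in the table. Every library is 1 tube from the same cell line, so a p-value below measures the spread between tubes and not between cultures. Each call is 0 or 1 with no read count, so the sequencing depth of a library is unknown, and a call of 0 can mean either that the window was not in the tube or that it drew fewer reads than the threshold.

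The scattered libraries were set against 176 comparison libraries, which had a neighbour share of 65% or more and a coverage (the percent of all 68162 windows that were positive) within 2 points of a scattered library. The other 48 libraries fell in neither set. The scattered set held 7 of the 54 libraries of the full collection, 7 of the 11 libraries amplified with the large kit, 3 of 10 with reagent protocol A, 3 of 11 with protocol B and 1 of 10 with protocol C. The remaining members were 2 of 18 unstained libraries of the eosin test, 1 of 10 libraries of the SYBR Gold test, which the titles call unstained while the protocol text describes staining with this dye, and 1 of the 5 libraries with the proteinase K volume titled 1 µl. None of the 12 small-kit libraries, none of the 6 with the proteinase K volume titled 2 µl, and none from the freezing, cresyl violet, propidium iodide or PCR cycle experiments, was scattered. These counts follow from the rule and were not tested.

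The neighbour share of the scattered libraries ran from 31.3% to 64.9%, with a median of 51.8%, against 65.0% to 93.5% with a median of 84.9% in the comparison libraries. The 5 lowest were protocol B replicate 4 (31.3%), full collection replicates 47 (33.2%) and 46 (38.8%), protocol A replicate 5 (41.2%) and protocol B replicate 2 (43.2%). Just inside the threshold were the proteinase K library replicate 3 (62.3%) and large-kit replicates 5 (64.3%) and 10 (64.9%). Just outside were protocol B replicate 1 (65.03%) and eosin test replicates 18 (67.96%) and 2 (69.5%). The threshold therefore cut through a continuous range at its upper end, and the 5 lowest libraries lay far from it.

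Coverage was lower in the scattered libraries, at 10.0% ± 5.72 (SD, n = 25), than in the comparison libraries, at 17% ± 5.86 (SD, n = 176). Protocol A replicate 5 had the lowest coverage, 3.40% or 2318 positive windows. Full collection replicate 34 had the highest, 28.3% or 19315 positive windows. Coverage alone changes the neighbour share, because windows placed at random with the same coverage would have a neighbour share of 6.69% in the first of these libraries and 48.6% in the second. Each of the 25 libraries lay above its own random value. Full collection replicate 34, at 58.0%, came nearest to it, and protocol B replicate 4, at 31.3% against 8.20%, was the lowest of all.

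**Figure D1:**
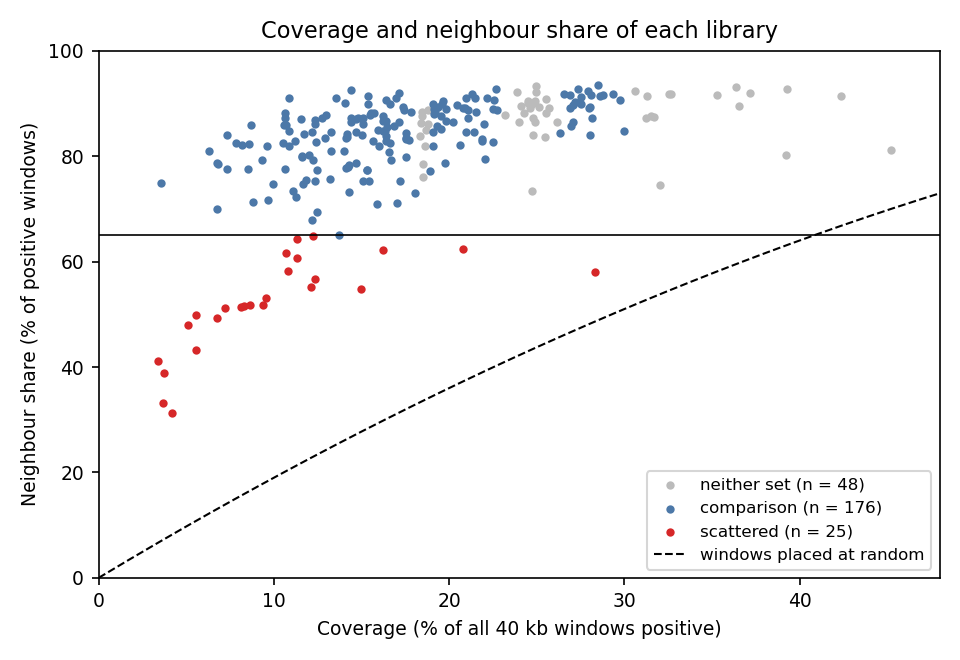
Each point is 1 library, with coverage on the x axis (percent of 40 kb windows positive) and neighbour share on the y axis (percent of positive windows with a positive neighbour). The horizontal line is the threshold of 65%, the dashed line is the share for windows placed at random, and the 25 scattered libraries (red) lie between the 2 lines.

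Positive windows of the scattered libraries formed short runs. The mean run on autosomes was 1.52 windows ± 0.150 (SD, n = 25), with a range of 1.23 to 1.78, whereas it was 3.08 ± 0.734 (SD, n = 176) in the comparison libraries. In all 25 libraries it was below the median of comparison libraries of like coverage. The longest run of a library spanned 0.240 to 2.12 Mb (median 0.600 Mb) in the scattered set and 0.560 to 8.64 Mb (median 1.76 Mb) in the comparison set. Windows with no positive neighbour made up 34.6% to 68.2% of the autosomal positive windows (median 47.8%), against a median of 14.7% in the comparison libraries. These measures move with the neighbour share that chose the libraries, so they are given as a description.

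Gaps of a single window made up a minority of the gaps between runs, and a smaller share than in the comparison libraries. Of the gaps between successive runs, 13.7% to 30.7% were exactly 1 window long in the scattered libraries (median 22.7%), against a median of 37.7% in the comparison libraries, and all 25 were below the median at like coverage.

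The scatter was not carried by a few chromosomes. Taken 1 autosome at a time, between 12 and 19 of the 19 autosomes had a neighbour share under 65% in each scattered library (median 18). In the comparison libraries this number ran from 0 to 11, with a median of 2. In 15 of the 25 scattered libraries every autosome but at most 1 was under the threshold. The neighbour share that chose both sets is the sum over these chromosomes, so the gap between the sets was largely fixed by the rule.

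Pairs of windows were nevertheless detected together more often than their separate frequencies give. The co-detection ratio is the share of autosomal window pairs at a given distance in which both are positive, divided by the product of the separate shares. A value of 1 stands for independent detection at the same rate in all windows. Unequal detection of whole autosomes and the 2177 autosomal windows positive in no library also raise it, so a small excess over 1 at long distances need not mean co-detection of pairs. At 40 kb the median ratio over the 25 scattered libraries was 3.46, and it fell with distance to 2.43 at 400 kb, 1.99 at 1 Mb, 1.49 at 4 Mb and 1.26 at 10 Mb. Comparison libraries of like coverage had higher ratios, with medians of 5.88 at 40 kb, 3.13 at 1 Mb and 1.80 at 10 Mb. Each of the 25 libraries was below its like-coverage median at each of the 9 distances. At the shortest distances this restates the choice of libraries, since at a given coverage the ratio at 40 kb follows closely from the share of windows with a neighbour.

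**Figure D2:**
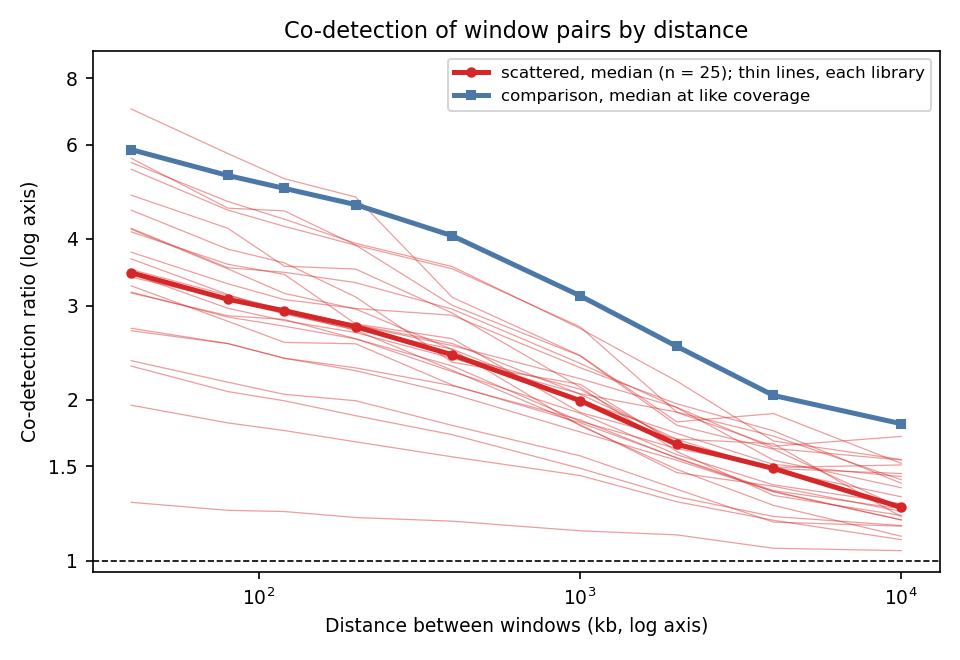
The x axis is the distance between windows (kb, log axis) and the y axis the co-detection ratio (log axis, dashed line at 1 for independent detection at the same rate in all windows). Thin red lines are the 25 scattered libraries and the thick red line their median, which falls from 3.46 at 40 kb to 1.26 at 10 Mb and stays below the median of comparison libraries of like coverage (blue).

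Positive windows were thus clustered on the megabase scale, in regions that were thinly filled. The autosomes were divided into blocks of 1 Mb (25 windows), and a block was called touched if at least 1 of its windows was positive. Scattered libraries touched 36.5% to 99.9% of the blocks (median 53.8%), more than the like-coverage median in all 25 libraries. Within touched blocks, 18.1% ± 5.39 (SD, n = 25) of the windows were positive, against 35% ± 6.20 (SD, n = 176) in the comparison libraries and a median of 28.9% in comparison libraries of like coverage. Blocks with at least 80% of their windows positive made up 0.299% of the 33489 touched blocks of the scattered libraries and 8.11% of the 213878 touched blocks of the comparison libraries, whose coverage was higher. Full collection replicate 34 held 45 of these 100 blocks of the scattered libraries, and without it the share was 0.176% of 31187 touched blocks. Of all blocks in a library, a median of 0.0434% were filled to this level in the scattered libraries and 1.06% in comparison libraries of like coverage, and 21 of the 25 scattered libraries were below their like-coverage median. In a nearly full block almost every positive window has a positive neighbour. The block measures thus move with the neighbour share that chose the libraries. Their contrast between the sets was largely fixed by the rule and was not tested.

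**Figure D3:**
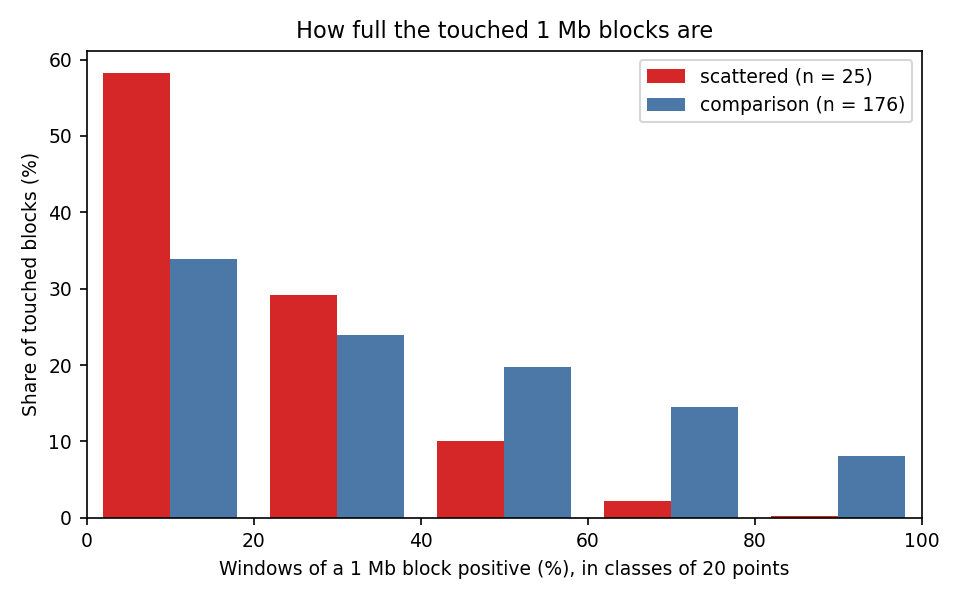
The x axis is the percent of the 25 windows of a 1 Mb block that were positive, in classes of 20 points, and the y axis the share of touched blocks (percent). Red bars pool the 25 scattered libraries and blue bars the 176 comparison libraries, with 58.2% and 33.8% of touched blocks in the lowest class.

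Chromosomes were also represented more evenly. The coefficient of variation of percent positive windows over the 19 autosomes was 49.2% ± 13.1 (SD, n = 25) in the scattered libraries and below the like-coverage median in all 25. Autosomes detected at under 25% of the library's own autosomal average, which a slice can miss, numbered 0 to 2 per scattered library (median 0) and 0 to 9 per comparison library (median 2). Unevenness over chromosomes moves with the neighbour share as well, so these values are a description only. Full collection replicate 34 stood apart from the other members here. Its coefficient of variation was 16.3%, its least detected autosome still had 22.6% of windows positive, it touched 99.9% of the blocks, and its co-detection ratio was 1.29 at 40 kb and 1.14 at 1 Mb, the lowest of the 25 at both distances. The proteinase K library, replicate 3, came next, with a coefficient of variation of 26.8% and 95.1% of blocks touched.

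Where on the genome the positive windows lay was not used to choose the libraries, so it was tested. For each library the mean GC content of its positive autosomal windows was taken, together with the relative detection of several window classes, which is the percent of the windows in the class that were positive divided by the percent of all autosomal windows that were positive. A value of 1 is the library's own average. GC content is a usual check of amplified DNA, since GC-rich and GC-poor templates can be copied unequally, and in the mouse genome GC-rich windows also hold more genes. The 10% of windows with the highest GC content started at 47.7% GC and the 10% with the lowest ended at 37.1%, with 5992 windows in each class.

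To show what these classes look like, 240 bases of mm9, plus strand, are printed from the middle of the window of each class that was positive in most scattered libraries, leaving out windows positive in over 50% of all libraries, with G and C in capitals. The GC-rich window lies in Man1c1, a mannosidase gene of the Golgi, on chr4:134160001-134200000 (51.1% GC), and was positive in 11 of the 25 scattered libraries (44%) and in 45 of the 176 comparison libraries (25.6%). The GC-poor window, chr13:12880001-12920000 (36.6% GC), holds Prl2c3, a prolactin family gene, and was positive in 10 scattered (40%) and 60 comparison libraries (34.1%).
chr4:134179881-134180120: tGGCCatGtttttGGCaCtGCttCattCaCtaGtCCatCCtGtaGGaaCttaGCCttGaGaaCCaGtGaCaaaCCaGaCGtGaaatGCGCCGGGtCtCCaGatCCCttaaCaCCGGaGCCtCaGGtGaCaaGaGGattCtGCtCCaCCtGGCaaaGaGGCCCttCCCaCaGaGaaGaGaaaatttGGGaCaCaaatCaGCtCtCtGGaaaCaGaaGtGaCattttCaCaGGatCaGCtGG
chr13:12899881-12900120: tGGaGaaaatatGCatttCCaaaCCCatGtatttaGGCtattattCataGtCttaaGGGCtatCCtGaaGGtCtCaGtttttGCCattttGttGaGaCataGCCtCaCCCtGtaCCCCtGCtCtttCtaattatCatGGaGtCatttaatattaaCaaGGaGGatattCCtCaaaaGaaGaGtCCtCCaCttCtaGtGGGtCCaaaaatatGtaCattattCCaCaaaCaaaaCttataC
Both windows were picked for their high detection in the scattered libraries, so their values carry no test.

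Within coverage bins, no measure of location passed the threshold over all 25 scattered libraries. With the kit experiment left out, 8 of 13 passed, and 5 of these 8 were lost once the libraries under 5% coverage, 4 scattered and 1 comparison, were left out as well. With the full collection left out instead, or the reagent volume experiment, none of 13 passed (adjusted permutation p of at least 0.581 and 0.414). Scattered libraries and comparison libraries were compared within bins of 5 points of coverage, and p-values came from a two-sided permutation test over libraries within bins (100000 resamples), adjusted with the Benjamini-Hochberg method over 13 measures. The bin under 5% coverage held 4 scattered libraries and 1 comparison library, so each difference is also given without libraries under 5% coverage where it moved by over 1.5 times. The GC content of positive windows ran from 41.7% to 43.8% in the scattered libraries (median 42.4%) and from 41.1% to 43.1% in the comparison libraries (median 42.3%). The ranges overlapped widely, and the difference within bins was 0.25 points (permutation p = 0.0631, adjusted p = 0.158). It was 0.0865 points without the libraries under 5% coverage (permutation p = 0.435) and 0.46 points without the kit experiment (adjusted permutation p = 0.00708). Without both it was 0.27 points and did not pass (adjusted permutation p = 0.0724). Within strata of experiment and coverage together, which kept 12 scattered and 42 comparison libraries, it was 0.0907 points (adjusted permutation p = 0.802). Without the full collection it was 0.14 points, and without the reagent volume experiment 0.18 points (adjusted permutation p = 0.646 and 0.414).

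Windows that held a gene were detected at 1.13 ± 0.0871 (SD, n = 25) times the autosomal average in the scattered libraries and at 1.08 ± 0.0417 (SD, n = 176) in the comparison libraries. This was the measure with the lowest p, with a difference of 0.0488 within bins (permutation p = 0.0135, adjusted p = 0.158). For windows with a gene start the difference was 0.0830 (adjusted permutation p = 0.158). It was 0.0826 for the GC-rich class (adjusted p = 0.347) and -0.0819 for the GC-poor class (adjusted p = 0.163), in the same permutation test. Without the libraries under 5% coverage these differences were 0.0268 for windows with a gene, 0.0412 for gene starts, -0.0122 for the GC-rich class and -0.0440 for the GC-poor class, with adjusted permutation p-values from 0.685 to 0.908. Without the kit experiment they were 0.0767, 0.14, 0.20 and -0.14, and all 4 passed (adjusted permutation p from 0.00331 to 0.0293). With the libraries under 5% coverage left out as well, windows with a gene (0.0518) and gene starts (0.0956) passed (adjusted permutation p = 0.0261 and 0.0286), while the GC-rich class (0.0884) and the GC-poor class (-0.0987) did not (adjusted permutation p = 0.281 and 0.111). Within strata of experiment and coverage the 4 differences were 0.0242, 0.0339, -0.0157 and -0.0480, and none passed (adjusted permutation p from 0.802 to 0.856). Without the full collection they were 0.0318, 0.0464, 0.0184 and -0.0640. Without the reagent volume experiment they were 0.0368, 0.0571, 0.0478 and -0.0490. None passed in these settings (adjusted permutation p from 0.414 to 0.933).

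Chromosome ends and the X chromosome gave no call either. The relative detection of the 3 Mb next to the centromere differed by -0.0404 within bins (adjusted permutation p = 0.809), and that of the last 3 Mb of the chromosomes by -0.0151 (adjusted permutation p = 0.840). Without the libraries under 5% coverage they were -0.14 and -0.0540 (adjusted permutation p = 0.685 and 0.822). Chromosome X, of which these male cells carry a single copy, was detected at 0.0304 to 1.28 times the autosomal average in the scattered libraries (median 0.390) and at 0.00206 to 3.16 in the comparison libraries (median 0.451). The difference within bins was -0.44 (adjusted permutation p = 0.201). It rested on the bin under 5% coverage, where the only comparison library had the highest value of its set, 3.16, and it was 0.0272 without that bin (adjusted permutation p = 0.908). Across chromosomes, 0 of 21 differed at an adjusted p under 0.05 and 0 at an unadjusted p under 0.05 in the same permutation test, which is 0% of the chromosomes in both cases.

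Gene lists of opposite state in stem cells were examined next. Pluripotency genes, which keep stem cells undifferentiated and are active here, were represented by the gene-start windows of 17 of 18 listed genes. Relative detection of this set was 2.12 ± 1.76 (SD, n = 25) in the scattered libraries and 1.28 ± 0.622 (SD, n = 176) in the comparison libraries, and the difference within bins was 0.69 (permutation p = 0.0728, adjusted p = 0.158). It was 0.21 without the libraries under 5% coverage (permutation p = 0.452) and 0.26 with bins of 2 points (permutation p = 0.394), 1.02 within strata of experiment and coverage (permutation p = 0.111) and 1.1 without the kit experiment, where it passed (adjusted permutation p = 0.0293). With the kit experiment and the libraries under 5% coverage both left out it was 0.50 and did not pass (adjusted permutation p = 0.219). With 17 windows, a library of low coverage rests on 1 or a few windows. The gene detected in most scattered libraries was Nanog, a homeobox factor of the pluripotency network. Its window was positive in 11 of 25 scattered libraries (44%) and in 49 of 176 comparison libraries (27.8%). The window of Sall4, a zinc finger factor, was positive in 10 (40%) and 44 (25.0%). Pou5f1, which encodes Oct4, was positive in 3 (12%) and 42 (23.9%), and Zfp42, which encodes Rex1, in 1 (4.00%) and 27 (15.3%). Relative to the autosomal average of each set, 8 of the 17 windows were detected more and 9 less in the scattered libraries. None of the 17 passed Fisher's exact test, adjusted or not.

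Very long neuronal genes, which are silent in stem cells, covered 568 windows in 14 genes, of which 12 had a GC content below the autosomal mean of 41.9%. Their relative detection was 0.874 ± 0.365 (SD, n = 25) in the scattered libraries and 0.943 ± 0.387 (SD, n = 176) in the comparison libraries, with a difference within bins of -0.32 (permutation p = 0.0718, adjusted p = 0.158). The only comparison library under 5% coverage had the highest value of its set, 2.45, and without libraries under 5% coverage the difference was -0.0397 (permutation p = 0.680). Within strata of experiment and coverage it was -0.12 (permutation p = 0.473). Without the kit experiment it was -0.52 and passed (adjusted permutation p = 0.0293), and with the libraries under 5% coverage left out as well it was -0.15 and did not (adjusted permutation p = 0.281). Relative to the average of each set, 8 of the 14 genes were detected less and 6 more in the scattered libraries. Lrp1b, a lipoprotein receptor gene of 52 windows, stood at 61.1% of the autosomal average in the scattered libraries and 93.8% in the comparison libraries, while Macrod2, a gene of 51 windows that encodes a macrodomain protein, stood at 133% and 98.2%. None of the 568 windows passed Fisher's exact test after adjustment, and without it 36 (6.34%) were lower and 0 higher in the scattered libraries, near the 7.36% lower among all windows tested.

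The 13 measures included 2 that set the libraries against the rest of the collection. Likeness was the mean phi coefficient, a correlation of 0/1 calls, between a library and the comparison libraries of other experiments. It ran from 0.00187 to 0.0136 in the scattered libraries and from -0.00189 to 0.0141 in the comparison libraries, and the difference within bins was 0.00160 (permutation p = 0.0393, adjusted p = 0.158), or 0.00106 without the libraries under 5% coverage (permutation p = 0.196) and 0.00154 within strata of experiment and coverage (permutation p = 0.0985). Without the kit experiment it was 0.00315 and passed (adjusted permutation p = 0.00247), as it did at 0.00278 with the libraries under 5% coverage left out as well (adjusted permutation p = 0.0261). The contact score was the mean linkage z-score, in a map made from the libraries that were not scattered, of the window pairs 200 kb to 4 Mb apart that were both positive in a library. The score was 0.0405 ± 0.0284 (SD, n = 25) in the scattered libraries and 0.0347 ± 0.0275 (SD, n = 176) in the comparison libraries, with a difference within bins of -0.00754 (permutation p = 0.486, adjusted p = 0.631). It was 0.00236 without the libraries under 5% coverage (permutation p = 0.775).

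Single windows were compared with Fisher's exact test over the 63502 windows with a call in 3 or more of these libraries. At an adjusted p under 0.05, 0 windows (0%) were detected more often and 0 windows (0%) less often in the scattered libraries. At an unadjusted p under 0.05, 48 windows (0.0756%) were detected more often and 4675 (7.36%) less often, a test that leaves the lower coverage of the scattered libraries in place. A Mantel-Haenszel test over coverage bins also gave 0 windows after adjustment in either direction, with 1780 (2.8%) higher and 900 (1.42%) lower at an unadjusted p under 0.05. By Fisher's test, the window with the lowest p among those detected more often was chr2:52400001-52440000 in Cacnb4, a calcium channel subunit gene, positive in 9 of 25 scattered (36%) and 19 of 176 comparison libraries (10.8%, with an exact p of 0.00247, or 0.505 after adjustment). Second was chr1:37080001-37120000 in Vwa3b, with 12 (48%) and 32 (18.2%) positive libraries. It was followed by 2 windows on chromosome 16, in Ncam2, a neural adhesion gene, and at Osbpl11 and Snx4, and by 1 on chromosome 2 in Metap1d. Within coverage bins these 5 windows came in another order, with unadjusted Mantel-Haenszel p-values of 6.24e-05 for Ncam2, 0.000100 for Osbpl11 and Snx4, 0.000157 for Metap1d, 0.000259 for Cacnb4 and 0.000488 for Vwa3b, and none passed after adjustment (adjusted p from 0.596 to 0.919).

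Among windows detected less often, chr11:3080001-3120000, which holds Sfi1, Drg1 and Eif4enif1 at the centromeric end of the chromosome, had the lowest p. It was positive in 17 of 25 scattered libraries (68.0%) and 170 of 176 comparison libraries (96.6%, with an exact p of 3.45e-05, or 0.505 after adjustment). Then came the windows chr12:3080001-3120000 (52% and 86.4%) and chr9:35080001-35120000 (84.0% and 100%). All 3 are positive in most libraries of the collection, and within coverage bins their unadjusted p-values were 0.137, 0.145 and 0.0504. A window in Setd2, a histone methyltransferase gene, was positive in 0 of 25 scattered libraries and 55 of 176 comparison libraries, and one at Gstp2 on chromosome 19 in 0 and 54. Neither passed, with adjusted exact p-values of 0.505, and within coverage bins their unadjusted p-values were 0.0123 and 0.00790 (0.971 after adjustment).

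The autosomal window positive in most libraries of the collection was chr2:98480001-98520000, with a call in all 249 libraries and thus in all 25 scattered ones. Its most repetitive 240 bases, plus strand of mm9, matched the sequence 251 bases further on at 97.1% of positions, with G and C again in capitals.
chr2:98506940-98507179: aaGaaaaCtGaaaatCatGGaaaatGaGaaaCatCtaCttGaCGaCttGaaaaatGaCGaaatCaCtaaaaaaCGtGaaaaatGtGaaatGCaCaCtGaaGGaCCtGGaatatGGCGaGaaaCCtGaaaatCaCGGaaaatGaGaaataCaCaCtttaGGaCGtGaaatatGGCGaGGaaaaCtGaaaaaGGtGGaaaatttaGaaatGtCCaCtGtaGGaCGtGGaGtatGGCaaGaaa
Relative detection of the 35 autosomal windows positive in over 50% of all libraries was 5.79 ± 2.42 (SD, n = 25) in the scattered libraries and 4.13 ± 1.42 (SD, n = 176) in the comparison libraries, and the difference within coverage bins was -0.13 (adjusted permutation p = 0.840), or 0.00822 without the libraries under 5% coverage (adjusted permutation p = 0.983).

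The difference between scattered and comparison libraries was next taken by experiment. The full collection, the kit experiment and the reagent volume experiment held 7 scattered libraries each. GC content of positive windows was 42.8% ± 0.569 (SD, n = 7) in scattered libraries of the full collection, 0.49 points above its 40 comparison libraries. It was 42.8% ± 0.645 (SD, n = 7) in the reagent volume experiment, 0.47 points above its 20 comparison libraries. In the kit experiment it was 42.1% ± 0.237 (SD, n = 7), 0.17 points below its 10 comparison libraries (difference -0.17). A permutation test of the spread of the 3 differences, centred on their common value, gave p = 0.00929, or 0.0201 adjusted over the 13 measures.

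Windows at genes gave differences of the same signs. The relative detection of gene-start windows ran from 1.05 to 1.42 (median 1.22) in the 7 scattered libraries of the full collection, from 1.05 to 1.56 (median 1.19) in those of the reagent volume experiment, and from 0.989 to 1.14 (median 1.04) in those of the kit experiment. The differences from the comparison libraries were 0.142, 0.170 and -0.0537, in this order (adjusted permutation p = 0.0118). For windows that hold a gene they were 0.0809, 0.0834 and -0.0232 (adjusted permutation p = 0.0124), and for the GC-rich class 0.208, 0.195 and -0.166 (adjusted permutation p = 0.0152). The pluripotency windows gave 1.1, 1.85 and -0.21 (adjusted permutation p = 0.0152). Likeness to libraries of other experiments gave 0.00307, 0.00138 and -0.00417 (adjusted permutation p = 0.00273), and all 7 scattered libraries of the kit experiment were below the mean of its comparison libraries. The other 7 measures did not pass this test. Mean coverage of scattered and comparison libraries was 11.9% and 14.9% in the full collection, 8.66% and 17.5% in the reagent volume experiment, and 9.35% and 20.9% in the kit experiment. With a linear fit on log2 coverage subtracted, the likeness difference of the kit experiment was -0.00276, and 1 of its 7 scattered libraries lay above the comparison mean.

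**Figure D4:**
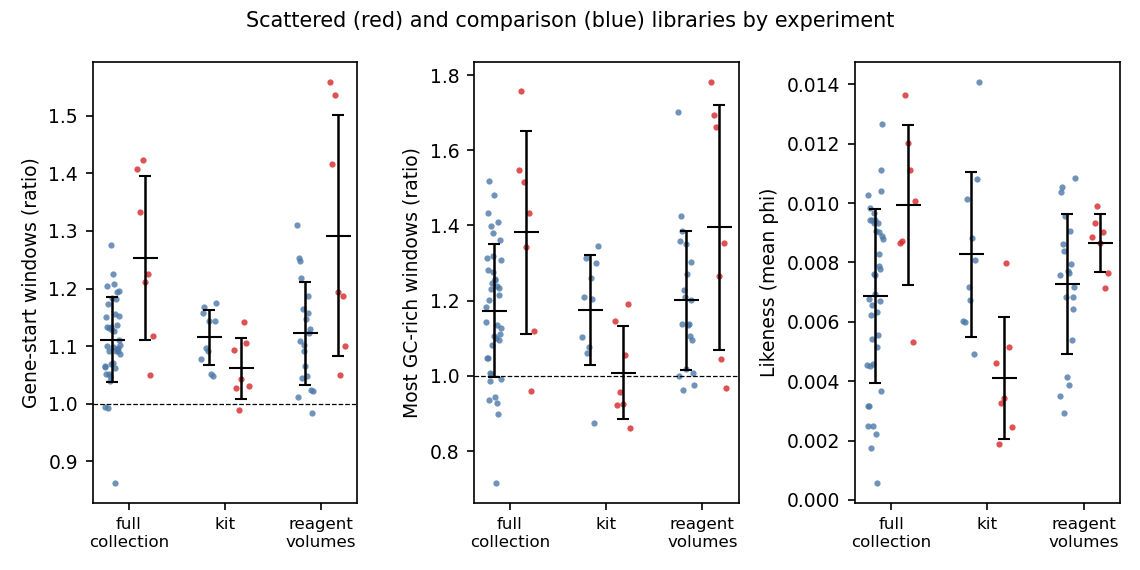
The panels show relative detection of gene-start windows, relative detection of the most GC-rich windows (both ratios, dashed line at 1) and likeness (mean phi coefficient) for each library of the 3 experiments with 7 scattered libraries. Red points are scattered and blue points comparison libraries, black marks are mean ± SD, and the scattered libraries of the kit experiment lie low in all 3 panels.

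All 6 calls held when a linear fit on log2 coverage was subtracted first, with adjusted permutation p-values from 0.00585 to 0.0111, and when each of the 21 scattered libraries was left out in turn (10000 resamples), with adjusted p-values of at most 0.0481. Leaving out the libraries under 5% coverage left 5, 7 and 5 scattered libraries. With no coverage fit, likeness alone then passed (differences 0.00356, -0.00417 and 0.00121, adjusted permutation p = 0.00299). The differences in GC content were then 0.28, -0.17 and 0.20 points (adjusted permutation p = 0.247) and those in gene starts 0.0948, -0.0537 and 0.0914 (adjusted permutation p = 0.173), so 5 of the 6 calls were lost without these 4 libraries. The 7 scattered libraries of the kit experiment were all amplified with the large kit, while 8 of its 10 comparison libraries were not, so kit and scatter cannot be told apart there. The library names begin with a prefix of their own in each experiment, which the labels do not explain, and kit and experiment cannot be told apart between experiments.

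At like coverage, the large-kit members differed from the other scattered libraries. With coverage from 5% to 13%, there were 7 large-kit members (mean coverage 9.35%) and 10 scattered libraries of other experiments (mean coverage 8.95%). The 7 all came from the kit experiment, and the 10 from the reagent volume, full collection, eosin and SYBR Gold experiments. The test shuffled tubes across experiments, so its p-values measure spread between tubes and cannot tell the kit from its experiment. The comparison was chosen after seeing the data. GC content of positive windows ran from 41.7% to 42.3% (median 42.1%) in the former and from 42.1% to 43.4% (median 42.7%) in the latter, a difference of -0.74 points (exact permutation p = 0.000720, adjusted p = 0.00312). The ranges overlapped only slightly. Relative detection of gene-start windows was 1.06 ± 0.0533 (SD, n = 7) against 1.27 ± 0.153 (SD, n = 10; exact permutation test, adjusted p = 0.00334). The GC-rich class was detected at 1.01 ± 0.124 (SD, n = 7) against 1.39 ± 0.194 (SD, n = 10; exact permutation test, adjusted p = 0.00312), and the GC-poor class at 0.940 ± 0.0989 (SD, n = 7) against 0.718 ± 0.136 (SD, n = 10; exact permutation test, adjusted p = 0.00588).

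Likeness to libraries of other experiments was 0.00411 ± 0.00205 (SD, n = 7) in the large-kit members and 0.00994 ± 0.00225 (SD, n = 10) in the others (exact permutation test, adjusted p = 0.00312). Windows that hold a gene, the last 3 Mb of chromosomes and chromosome X also passed, with differences of -0.0967, -0.30 and 0.41 (exact permutation test, adjusted p = 0.0114, 0.0185 and 0.0274). Of these 8 calls, 7 held when each of the 17 libraries was left out in turn, and the call for chromosome X held in 14 of the 17. The difference in contact score was -0.00456 (exact permutation test, adjusted p = 0.764). Pluripotency windows (adjusted p = 0.0947), neuronal genes (adjusted p = 0.0939), the centromeric ends and the often detected windows did not pass the exact permutation test.

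**Figure D5:**
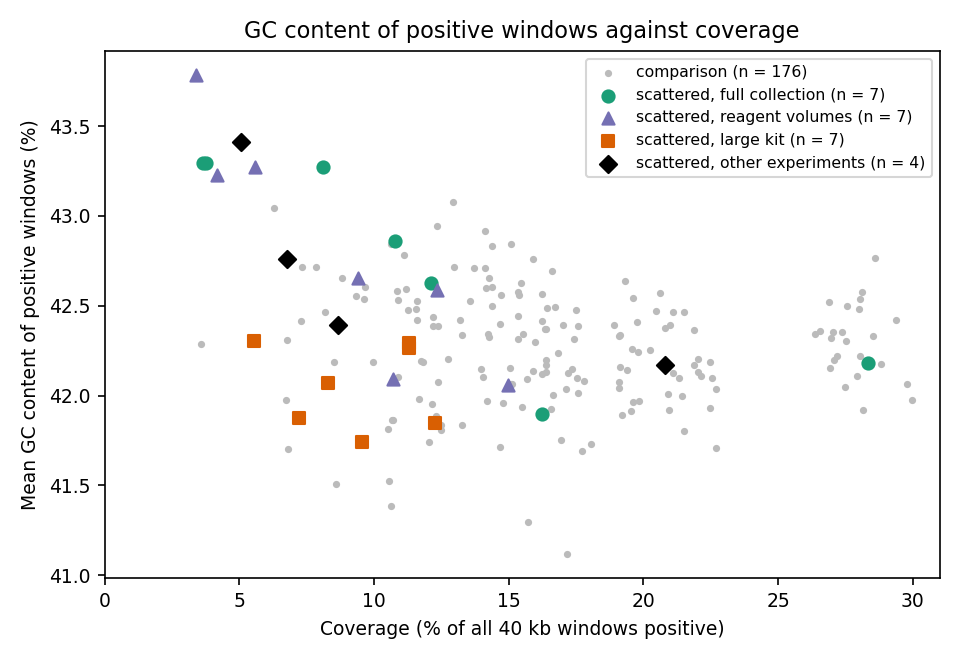
The x axis is coverage (percent of 40 kb windows positive) and the y axis the mean GC content (percent) of the positive autosomal windows of each library. Grey points are the 176 comparison libraries and coloured symbols the 25 scattered ones, of which the 7 large-kit libraries (orange squares) lie between 41.7% and 42.3%.

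In the scattered libraries of other experiments, the highest GC content was in the library of lowest coverage. Protocol A replicate 5, with a coverage of 3.40%, had 43.8%, and its gene-start windows were detected at 1.56 times the autosomal average. Full collection replicates 47 and 46, with coverages of 3.64% and 3.75%, both had 43.3%. At the other end, full collection replicates 29 and 34, with coverages of 16.3% and 28.3%, had 41.9% and 42.2%, and the proteinase K library, with 20.8%, had 42.2%. Other libraries broke this order. Eosin test replicate 8 had 43.4% at a coverage of 5.07%, full collection replicate 17 had 43.3% at 8.10%, and protocol A replicate 1 had 42.1% at 10.7%. A trend of GC content with coverage was not tested. Below 5% coverage there were 4 scattered libraries and 1 comparison library, so the lowest coverages have next to no match.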

How the data were processed

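The deposited table gives, for each of 249 libraries and 68162 windows of 40 kb, the value 1 for a positive window and 0 otherwise, a unit of its own (other than counts). Per the submitters' processing notes and the methods, the authors aligned reads to mm9 with Bowtie2 (version 2.1 in the notes), removed duplicates with Samtools and called windows with GAMtools at a fixed threshold of 4 reads. Read depth is unknown, so no interval or floor was computed. All columns were matched to labels by library name, and no 2 libraries were identical.

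The libraries, the window classes and the gene lists were chosen with earlier results of these data known. GC content was read from the NCBIM37 genome and genes from GENCODE vM1, over 61816 autosomal windows. Differences were averaged over coverage bins of 5 points, weighted by the scattered libraries in each bin. Windows were named if among the 5 with the lowest p in each direction, or among the most often detected. The comparisons by experiment, with and without a coverage fit or libraries under 5% coverage, those of the large-kit members, the strata of experiment and coverage and the block share without full collection replicate 34 were chosen after seeing the data. Tests were checked on simulated data. There the location test called 32 of 400 measures with no difference (8.0%) at an unadjusted p under 0.05, somewhat more often than its nominal level. Fisher's test of windows found very large but not moderate differences. Python 3.11.15, numpy 2.4.6 and scipy 1.17.1 were used.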

Additional observations from a re-analysis of the deposited data

Results flagged for a closer look

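The difference between scattered and comparison libraries was not the same in the 3 experiments with 7 scattered libraries each, by the permutation test of its spread. In the full collection, the kit experiment and the reagent volume experiment, in this order, it was 0.486, -0.166 and 0.475 points for the GC content of positive windows, 0.208, -0.166 and 0.195 for relative detection of the GC-rich class, 0.0809, -0.0232 and 0.0834 for windows with a gene, and 0.142, -0.0537 and 0.170 for gene-start windows. It was 1.1, -0.207 and 1.85 for the pluripotency windows and 0.00307, -0.00417 and 0.00138 for likeness. The comparison libraries of the kit experiment were mostly small-kit, and the part of the kit in these differences was not tested. Without the 4 scattered libraries under 5% coverage, likeness alone passed.

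In 2 cases a single library lay far from the others of its group by Dixon's test. Relative detection of the 3 Mb next to the centromere was 0.737 in full collection replicate 46, the lowest of the 7 scattered libraries of that group. Relative detection of windows with a gene was 1.13 in large-kit replicate 1, the highest of its 7. Chance marks about 1 in 20 groups, and 2 groups were examined for 17 measures each.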

How the results depend on the processing

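The differences of location are within coverage bins of 5 points, where none of 13 passed. None passed with bins of 2 points either, which kept 21 scattered and 137 comparison libraries. The differences were then 0.18 points for GC content, 0.0362 for windows with a gene, 0.0559 for gene starts and 0.00119 for likeness (adjusted permutation p from 0.399 to 0.434). Without coverage bins, 7 measures passed the permutation test, with differences of 0.31 points for GC content, 0.11 for the GC-rich class, -0.11 for the GC-poor class, 0.0541 for windows with a gene, 0.0969 for gene starts and 0.84 for pluripotency windows, and the often detected windows, which also passed, turned to 1.66. Within experiments but without coverage bins, GC content (0.28 points), the GC-poor class (-0.10), windows with a gene (0.0481), gene starts (0.0895) and pluripotency windows (0.92) passed, as did the often detected windows, which turned to 1.84. Both settings leave the lower coverage of the scattered libraries in place. With coverage bins kept, none of 13 passed without the full collection, and none without the reagent volume experiment. There the differences in likeness were 0.000941 and 0.00127, in pluripotency windows 0.78 and 0.43, and in neuronal genes -0.23 and -0.26. With coverage bins kept and the kit experiment left out, 8 measures passed: GC content (0.46 points), the GC-rich class (0.20), the GC-poor class (-0.14), windows with a gene (0.0767), gene starts (0.14), pluripotency windows (1.1), neuronal genes (-0.52) and likeness (0.00315). With libraries under 5% coverage left out as well, a setting added after seeing the data, windows with a gene (0.0518), gene starts (0.0956) and likeness (0.00278) still passed, 5 measures were lost, namely GC content (0.27 points, adjusted permutation p = 0.0724), the GC-rich class (0.0884, 0.281), the GC-poor class (-0.0987, 0.111), pluripotency windows (0.50, 0.219) and neuronal genes (-0.15, 0.281), and telomeric ends were 0.0349, the often detected windows 0.27 and contact score 0.00475.

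In the following settings the sign turned in measures that did not pass there. Contact score turned to 0.00579 without bins, 0.00318 with bins of 2 points, 0.00798 within experiments, 0.00236 without libraries under 5% coverage, 0.000428 without the reagent volume experiment and 0.00569 with strata of experiment and coverage, a setting added after seeing the data. Telomeric ends turned to 0.0201 with bins of 2 points, 0.0138 and 0.0690 without the full collection or the kit experiment, and 0.0874 with strata of experiment and coverage. The often detected windows turned to 0.00822 without low-coverage libraries, 0.0480, 0.0119 and 0.31 without the full collection, kit or reagent volume experiment, and 0.39 with strata of experiment and coverage. The GC-rich class turned to -0.0122 and chromosome X to 0.0272 without low-coverage libraries, the GC-rich class to -0.0157 with strata of experiment and coverage, and the centromeric ends to 0.0583 without the kit experiment. The cause of these turns was not tested. Leaving out each scattered library in turn changed no call. Only the telomeric ends changed sign, within a range of -0.0322 to 0.00455 that includes 0.000176 without eosin test replicate 8. Differences that had not passed moved by over 1.5 times for the centromeric ends (-0.0769 to -0.0127), contact score (-0.00983 to -0.00397) and the often detected windows (-0.36 to -0.00113). Without full collection replicate 34, GC content differed by 0.27 points.

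For chromosomes, 1 passed without bins and 1 within experiments, against 0 with bins. It was chromosome Y in both settings, with differences of 6.53 and 6.93 points (adjusted permutation p = 0.00021). With bins it differed by 0.49 points (adjusted permutation p = 0.717). The measure is the percent of a chromosome's windows positive minus that of the other autosomal windows, so it carries the coverage of a library. Its mean for Y was -9.02 points in the scattered and -15.6 in the comparison libraries. For windows, the count was 0 in both directions under each alternative run, which says nothing about differences too small for a test of 25 libraries. The often detected windows gave no value once they were left out, and leaving out windows positive in no library does not enter the contact score. No paired analysis was possible because replicate numbers only name the libraries and pair none of them. Absent calls cannot be told from low depth, which limits every value here.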
